A study of Mus musculus with 6 samples.

Results

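The 10 genes described here are Dntt, Rag1, Rag2, Il7r, Flt3, Ikzf1, Ikzf3, Satb1, Igll1 and Ebf1, chosen by name as genes of lymphoid priming, the early switching on of B and T cell genes in blood progenitors. These genes, and the lists of partner genes below, were chosen with earlier results of these data known. The 10 genes were found through the array's platform annotation, as every probe set assigned to exactly 1 of these symbols, which gave 25 probe sets for 10 of the 18193 genes named on the array. The samples were 3 arrays of cells cultured with mD1R and 3 arrays of cells cultured with PBS, all from C57BL/6J mice. In each case bone marrow KSL cells (c-Kit positive, Sca-1 positive, lineage negative, the gate of blood stem and early progenitor cells) had been kept on a feeder layer of human endothelial cells from umbilical vein, with a cocktail of mouse cytokines, over 7 days, and were then sorted once more as KSL cells before RNA extraction. The labels leave mD1R unexplained. From the study it is known as a soluble protein made from the receptor-binding part of the mouse Notch ligand Delta-like 1, with an added motif that holds it to endothelial cells.

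Lymphoid priming begins in progenitors that still carry stem cell markers. The cytokine receptors Flt3 and Il7r carry the survival and expansion signals, and the nuclear factors Ikaros (Ikzf1) and Satb1 open the lymphoid programme. Ebf1 commits cells to the B lineage, and Aiolos (Ikzf3) is the Ikaros family member of later B cell stages. The recombinase genes Rag1 and Rag2 and the terminal transferase gene Dntt then assemble and diversify antigen receptor genes, and Igll1 supplies part of the surrogate light chain of the pre-B cell receptor. Notch signalling is known to favour the T lineage over the B lineage in lymphoid progenitors.

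With mD1R, genes of lymphoid priming were lower in signal, with the cytokine receptor gene Il7r as the exception. Of the 10 genes, judged by the brightest probe set of each, Dntt, Flt3, Ikzf1, Satb1, Ebf1 and Igll1 fell and Il7r rose past an adjusted p of 0.05. Rag1 and Ikzf3 did not pass, and Rag2 was too dim to be tested. Values are log2 signals, differences are mD1R minus PBS on the log2 scale with limma's standard error, and n is 3 arrays per group throughout. Of the 25 probe sets, 20 had a mean log2 signal of at least 5.27, the 40th percentile of the array, and were tested. Of these 20, 11 were lower past the threshold, where 6.5% of all 27022 tested probe sets were, and 1 was higher, against 6.13%. In 16 of the 20 every mD1R array lay below every PBS array, against 18.6% of all tested probe sets, and in 2 every mD1R array lay above, against 17.3%. By brightest probe set this held for 8 of the 9 tested genes on the lower side, against 18.1% of 12320 genes. The median difference was -2.02 over the 20, and 0.0046 over all tested probe sets. Because the genes were chosen with earlier results of these data known, these counts and shares are a description and not a test. For 4 of the 20 the PBS mean lay above the 5.27 limit and the mD1R mean below it. They thus entered the test through their PBS arrays and were bound to differ. These were Dntt 1420166_at, Rag1 1450680_at, Satb1 1439449_at and Ebf1 1439789_at, and Rag1 is also counted among the 8 genes. With no filter all 25 were tested and 10 were lower, against 3.28% of 45037 probe sets. The count of 11 depended on which arrays were used. Without mD1R replicates 1, 2 and 3 it was 9, 6 and 11, where 4.16%, 1.37% and 11.3% of all tested probe sets were lower. Without PBS replicates 1 and 2 it was 6 and 4, against 2.11% and 0.785%. Without PBS replicate 3 it was 0, where limma called 0 of all 27022 probe sets. Of these, 5853 still had an unadjusted p below 0.05, 14 of them members that were lower.

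**Figure D1:**
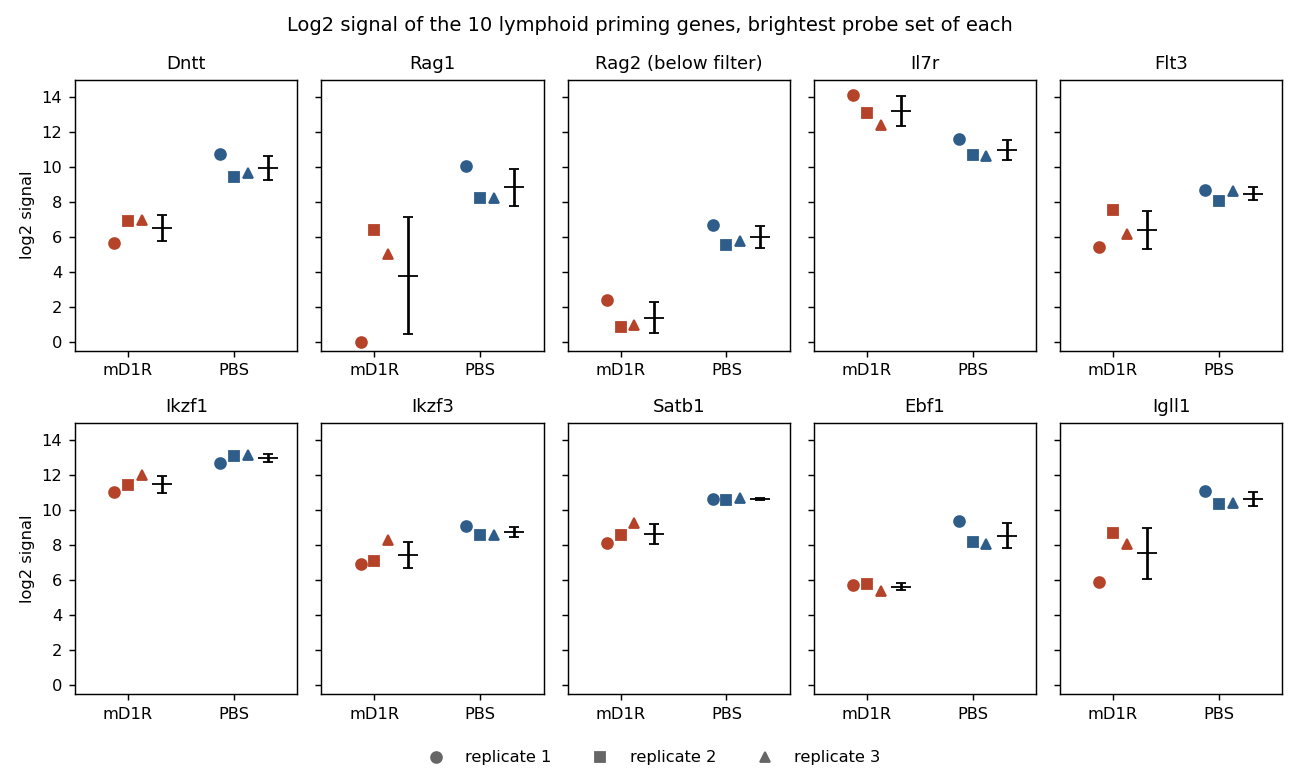
Log2 signal (vertical axis) of the brightest probe set of each of the 10 genes in the 3 mD1R arrays (red, left in each panel) and the 3 PBS arrays (blue, right). Symbols give the replicate number, and the black bar gives the mean ± SD. The groups do not overlap in any panel, and Il7r is the only panel in which mD1R lies above PBS. Rag2 lies below the filter.

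The promoters of 3 genes are shown, Rag1 and Igll1 because their windows hold matches to motifs of lymphoid factors and Il7r because it is the gene with higher signals. They were taken from RefSeq on GRCm38.p6 and run from 250 bases before to 50 bases after the annotated start, 5′ to 3′ on the gene's strand. Of the 10 genes, 9 had an entry there. Ikzf3 was not matched. The windows were searched on both strands for the palindromic EBF site, the E-boxes CAGCTG and CACCTG bound by E proteins such as the Tcf3 product, and the Ikaros core TGGGAA, and matches are in capitals.
Rag1, chr2:101649483-101649782, minus strand: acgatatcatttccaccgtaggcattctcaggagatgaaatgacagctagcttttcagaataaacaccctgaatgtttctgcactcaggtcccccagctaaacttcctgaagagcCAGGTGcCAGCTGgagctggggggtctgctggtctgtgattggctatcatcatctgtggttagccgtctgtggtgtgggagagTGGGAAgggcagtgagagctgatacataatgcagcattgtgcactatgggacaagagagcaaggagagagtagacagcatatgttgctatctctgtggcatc
Igll1, chr16:16863936-16864235, minus strand: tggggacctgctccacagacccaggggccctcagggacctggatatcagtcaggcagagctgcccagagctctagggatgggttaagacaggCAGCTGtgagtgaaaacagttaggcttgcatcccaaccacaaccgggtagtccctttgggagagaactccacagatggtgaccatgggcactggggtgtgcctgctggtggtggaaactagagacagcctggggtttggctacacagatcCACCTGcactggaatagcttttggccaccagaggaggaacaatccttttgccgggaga
Il7r, chr15:9529827-9530126, minus strand: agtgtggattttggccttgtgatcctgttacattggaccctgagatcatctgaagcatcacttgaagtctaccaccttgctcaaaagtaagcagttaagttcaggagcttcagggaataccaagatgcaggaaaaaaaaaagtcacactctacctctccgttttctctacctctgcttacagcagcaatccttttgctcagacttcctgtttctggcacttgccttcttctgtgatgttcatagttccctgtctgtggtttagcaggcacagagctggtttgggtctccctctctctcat
The Rag1 window holds both E-boxes next to each other, CACCTG as its reverse complement at -135 and CAGCTG at -128 from the start, and the Ikaros core at -52. The Igll1 window holds CAGCTG at -158 and CACCTG at -8. None of the 4 motifs occurs in the Il7r window, nor in those of Dntt, Rag2, Flt3 and Ikzf1, which had lower signals. With Il7r the only gene with higher signals, the windows cannot show whether matches go with direction. Of the Satb1 and Ebf1 windows some hold a match and others none. Over all 32851 promoter windows of the same length, CAGCTG occurs in 16.3%, CACCTG in 20.2%, either of them in 32.9%, TGGGAA in 25.6% and the EBF site in 0.904%. These matches are letters in a window and were not tested for binding.

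Among the genes of antigen receptor rearrangement, Dntt fell and the recombinase genes were lower in every mD1R array. Dntt encodes terminal deoxynucleotidyl transferase, which adds untemplated bases at the joints of rearranged genes. Its brightest probe set (1450545_a_at) had log2 signals of 5.65, 6.92 and 7.00 in mD1R replicates 1, 2 and 3, and of 10.74, 9.45 and 9.65 in PBS replicates 1, 2 and 3. The lowest PBS array thus lay more than 2 log2 units above the highest mD1R array. The difference was -3.42 ± 0.46, or 10.7-fold lower (adjusted p = 0.0109). It passed in 16 of 17 alternative settings, with adjusted p from 0.00186 to 0.0663, the exception being the fit without PBS replicate 3 (-3.57, adjusted p = 0.0663). The other Dntt probe sets pointed the same way. 1420166_at, which entered the test only through its PBS arrays, fell by 2.06 ± 0.55 (adjusted p = 0.0465). The probe set 1449757_x_at, whose name marks probes that can match other transcripts, differed by -2.76 ± 0.96 (adjusted p = 0.0994). The 1420166_at call held in 7 of 16 alternative settings (adjusted p from 0.0245 to 0.144). It was lost without any 1 of PBS replicates 1, 2 and 3 or mD1R replicates 1 and 2, with no filter (adjusted p = 0.0751) and with no variance trend (0.0532). It was also lost with the replicate number (0.0506) or the spike-in set described below (0.0764) as a block.

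Rag1 encodes the catalytic subunit of the recombinase, and its only probe set (1450680_at) was listed at log2 0 in mD1R replicate 1, and at 6.39 and 5.00 in mD1R replicates 2 and 3. In PBS replicates 1, 2 and 3 it had 10.07, 8.24 and 8.23. This probe set is one of those that entered the test through their PBS arrays, so its groups were bound to differ. The mD1R arrays spread widely (3.80 ± 3.36, SD), and the difference of -5.05 ± 1.47 did not pass (adjusted p = 0.0595). Both the size and the call varied with the array left out and with the handling of low values. Without mD1R replicate 1 the difference was -3.15 and passed (adjusted p = 0.0368), and without mD1R replicate 3 it was -5.65 and passed (adjusted p = 0.0471). With 64 added to the linear signals before taking log2, which damps such low values, it was -2.45 (adjusted p = 0.0162), and with array weights it was -3.93 (adjusted p = 0.0375). Over 16 alternatives the adjusted p ran from 0.0162 to 0.166, and 5 passed.

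Rag2 encodes the partner subunit that binds marked chromatin. Its probe set (1418065_at) had 2.40, 0.85 and 0.95 in mD1R replicates 1, 2 and 3, against 6.71, 5.54 and 5.75 in PBS replicates 1, 2 and 3. Its mean lay below the filter, so it had no test in the main comparison. The fit with no filter gave a difference of -4.60 (adjusted p = 0.0143). Low signals of this kind cannot be told from background on these arrays, and the size of the Rag1 and Rag2 differences is correspondingly imprecise.

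Of 12 partner genes of DNA end joining and recombination, 10 were measured, 1 fell and 9 did not pass, where 7.09% of all 12320 measured genes fell and 8.49% rose. The gene that fell was Hmgb2 (-1.93 ± 0.26, adjusted p = 0.0109), whose chromatin protein assists DNA cleavage by the recombinase and is also abundant in dividing cells. The list median was -0.16, against 0.09 over all measured genes.

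The cytokine receptor genes moved in opposite directions. Flt3, the receptor of the Flt3 ligand that marks lymphoid-primed progenitors, had log2 signals of 5.45, 7.56 and 6.17 in mD1R replicates 1, 2 and 3, and of 8.72, 8.04 and 8.64 in PBS replicates 1, 2 and 3 (1419538_at). All 3 mD1R arrays lay below the PBS arrays, with mD1R replicate 2 the closest to them. It fell by 2.08 ± 0.52, or 4.22-fold (adjusted p = 0.0377). This was the least settled of the calls on a brightest probe set. It held in 11 of 17 alternatives (adjusted p from 0.026 to 0.134), and was lost without mD1R replicate 1 (-1.60, adjusted p = 0.0720) or 3 (-1.97, 0.0521), and without PBS replicate 1 (-1.95, 0.111), 2 (-2.29, 0.0848) or 3 (-1.99, 0.134), as well as with no variance trend (0.0585).

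Il7r encodes the specific chain of the interleukin 7 receptor, the main survival receptor of early B and T cells, which also serves in the receptor for thymic stromal lymphopoietin. Its brightest probe set (1448575_at) had 14.13, 13.08 and 12.43 in mD1R replicates 1, 2 and 3, and 11.64, 10.67 and 10.62 in PBS replicates 1, 2 and 3. Every mD1R array lay above every PBS array. Il7r rose by 2.24 ± 0.45, or 4.71-fold (adjusted p = 0.0208). The call held in 14 of 17 alternatives (adjusted p from 0.00238 to 0.0922) and was lost without mD1R replicate 2 (2.30, adjusted p = 0.0709), PBS replicate 2 (2.08, 0.0779) or PBS replicate 3 (2.06, 0.0922). The second probe set (1448576_at) had 12.67, 10.66 and 10.34 in mD1R replicates 1, 2 and 3, against 9.74, 8.87 and 8.99 in PBS replicates 1, 2 and 3. Its difference of 2.02 ± 0.57 did not pass (adjusted p = 0.0559). It passed in 6 of 17 alternatives (adjusted p from 0.00941 to 0.169). Among these were the fits without mD1R replicate 1 (1.30, adjusted p = 0.0470) or 3 (2.46, 0.0199). The others were with arrays centred on their medians (0.0475), a filter at the 60th percentile (0.0487), array weights (0.00941) and the replicate number as a block (0.00987). The higher signal of Il7r was thus seen with both of its probe sets, and PBS replicate 1 and mD1R replicate 1 had the highest value of their group in each.

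Of the signalling partners of these receptors, a single gene passed the test. Of 12 listed genes, 9 were measured, 1 fell and 8 did not pass, where 7.09% of all 12320 measured genes fell. The list median was -0.01. Sh2b3, an adaptor that restrains cytokine receptor signalling in blood cells, fell by 0.89 ± 0.17 on the log2 scale (adjusted p = 0.0188). Il2rg, which encodes the common chain that pairs with the interleukin 7 receptor, had no probe set with a single symbol and was not analysed here. Crlf2, which encodes the chain that pairs with Il7r in the other receptor, is given here after its value was seen, with a difference of 0.07 ± 0.21 (adjusted p = 0.853).

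Of the nuclear factors, Ikzf1, Satb1 and Ebf1 fell. Ikzf1, the founding Ikaros zinc finger gene, is used throughout the lymphoid lineages and in multipotent progenitors. Its brightest probe set (1436312_at) had 11.05, 11.44 and 12.00 in mD1R replicates 1, 2 and 3, against 12.74, 13.08 and 13.18 in PBS replicates 1, 2 and 3. The groups were separate, with mD1R replicate 3 nearest to the PBS arrays. It fell by 1.50 ± 0.26 (adjusted p = 0.0152), a call that held in 14 of 17 alternatives (adjusted p from 0.00187 to 0.0762) and was lost without mD1R replicate 2 (-1.47, adjusted p = 0.0613), PBS replicate 2 (-1.46, 0.0605) or PBS replicate 3 (-1.41, 0.0762). The dimmer Ikzf1 probe set (1421303_at) overlapped between the groups and differed by -0.62 ± 0.43 (adjusted p = 0.379).

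Ikzf3 encodes Aiolos, the Ikaros family member of later B cell stages. Its brightest probe set (1436649_at) had 6.92, 7.12 and 8.32 in mD1R replicates 1, 2 and 3, against 9.09, 8.62 and 8.59 in PBS replicates 1, 2 and 3. Replicates 1 and 2 of mD1R lay well below PBS, whereas mD1R replicate 3 lay just below the lowest PBS array. The difference of -1.32 ± 0.39 did not pass (adjusted p = 0.0609). Without mD1R replicate 3 the difference was -1.75 and passed (adjusted p = 0.00454). It also passed on all 6 arrays with arrays centred on their medians (adjusted p = 0.0482) or weighted (0.0149), and these were the 3 that passed of 17 alternatives (adjusted p from 0.00454 to 0.178). The probe set 1441088_at overlapped between the groups, with a difference of -0.38 ± 0.53 (adjusted p = 0.675), as did 1453378_at, which lay below the filter.

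The other members of the family, set beside these after their values were seen, did not follow one direction. Ikzf2, the Helios gene, rose by 1.55 ± 0.40 on the log2 scale (adjusted p = 0.0433). Ikzf4 differed by 1.08 ± 0.48 (adjusted p = 0.175) and Ikzf5 by -0.61 ± 0.18 (adjusted p = 0.0674), and neither passed. Of 16 genes of the Mi-2/NuRD complex and other corepressors that work with Ikaros proteins, all were measured. By limma at an adjusted p of 0.05, 0 fell and 0 rose, against 7.09% and 8.49% of all 12320 measured genes. An unadjusted p below 0.05 was found for 5 of the 16, and for 8048 of all 27022 tested probe sets. The gene with the smallest p was Mbd2, which encodes a methyl-DNA binding subunit, at -0.61 ± 0.17 (adjusted p = 0.0530).

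Satb1 encodes a chromatin organiser that promotes lymphoid output from stem cells. Its brightest probe set (1416007_at) had 8.12, 8.57 and 9.28 in mD1R replicates 1, 2 and 3, against 10.66, 10.58 and 10.70 in PBS replicates 1, 2 and 3. The PBS arrays were nearly equal, and mD1R replicate 3 was again the closest to them. It fell by 1.99 ± 0.29, or 3.97-fold (adjusted p = 0.0113), and held in 16 of 17 alternatives (adjusted p from 0.000797 to 0.0668), the exception being the fit without PBS replicate 3 (-1.96, adjusted p = 0.0668). The probe set 1416008_at fell by 1.89 ± 0.38 (adjusted p = 0.0206). That call was lost without mD1R replicate 2 (adjusted p = 0.0733) or any 1 of PBS replicates 1, 2 and 3 (0.0639, 0.0705 and 0.0889), and the range over 17 alternatives was 0.00166 to 0.0889. In the 3 dimmer probe sets every mD1R array also lay below every PBS array. Of these, 1436182_at differed by -1.95 ± 0.85 (adjusted p = 0.170) and 1439449_at by -1.92 ± 0.73 (adjusted p = 0.123), so neither passed. The probe set 1439449_at entered the test through its PBS arrays, and 1439315_at lay below the filter.

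Ebf1, which with Tcf3 and Pax5 sets up B cell identity, was covered by 5 probe sets, of which 4 were tested and all 4 fell, although 1439789_at is one of those that entered the test through their PBS arrays. In the brightest (1416301_a_at) the signals were 5.71, 5.78 and 5.41 in mD1R replicates 1, 2 and 3, and 9.37, 8.22 and 8.06 in PBS replicates 1, 2 and 3. The mD1R arrays lay close together at low signal, and PBS replicate 1 stood above the other PBS arrays. It fell by 2.92 ± 0.39, or 7.55-fold (adjusted p = 0.0109), and held in 15 of 16 alternatives (adjusted p from 0.00211 to 0.0663), the exception being the fit without PBS replicate 3 (-3.16, adjusted p = 0.0663). The log2 difference was -2.39 ± 0.38 in 1416302_at (adjusted p = 0.0126), -2.59 ± 0.46 in 1439789_at (adjusted p = 0.0156) and -2.20 ± 0.60 in 1448293_at (adjusted p = 0.0497). Of these calls, that on 1448293_at held in 7 of 16 alternatives (adjusted p from 0.0152 to 0.132) and was lost without any 1 array of either group, with no filter (adjusted p = 0.0627), with no variance trend (0.0711) and with array weights (0.0629). That on 1416302_at was lost without PBS replicate 2 or 3 (adjusted p = 0.0515 and 0.0663), and that on 1439789_at without mD1R replicate 2 or PBS replicate 3 (0.0507 and 0.0668). The remaining probe set (1457441_at) lay far below the filter and overlapped between the groups.

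Igll1 encodes lambda 5, which forms the surrogate light chain together with the Vpreb proteins. Its brighter probe set (1420176_x_at) had 5.91, 8.69 and 8.06 in mD1R replicates 1, 2 and 3, against 11.13, 10.36 and 10.45 in PBS replicates 1, 2 and 3. Replicate 1 of mD1R was far below the others of its group, and all 3 lay below PBS. It fell by 3.09 ± 0.64, or 8.53-fold (adjusted p = 0.0233), and held in 14 of 17 alternatives (adjusted p from 0.00762 to 0.0848). It was lost without PBS replicate 1 (-2.85, adjusted p = 0.0768), 2 (-3.23, 0.0681) or 3 (-3.19, 0.0848). The name of this probe set marks probes that can match other transcripts. The other probe set (1420177_at) was below the filter and the groups overlapped, with 4.99, 2.82 and 5.50 in mD1R replicates 1, 2 and 3 and 4.39, 5.80 and 6.83 in PBS replicates 1, 2 and 3.

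**Figure D2:**
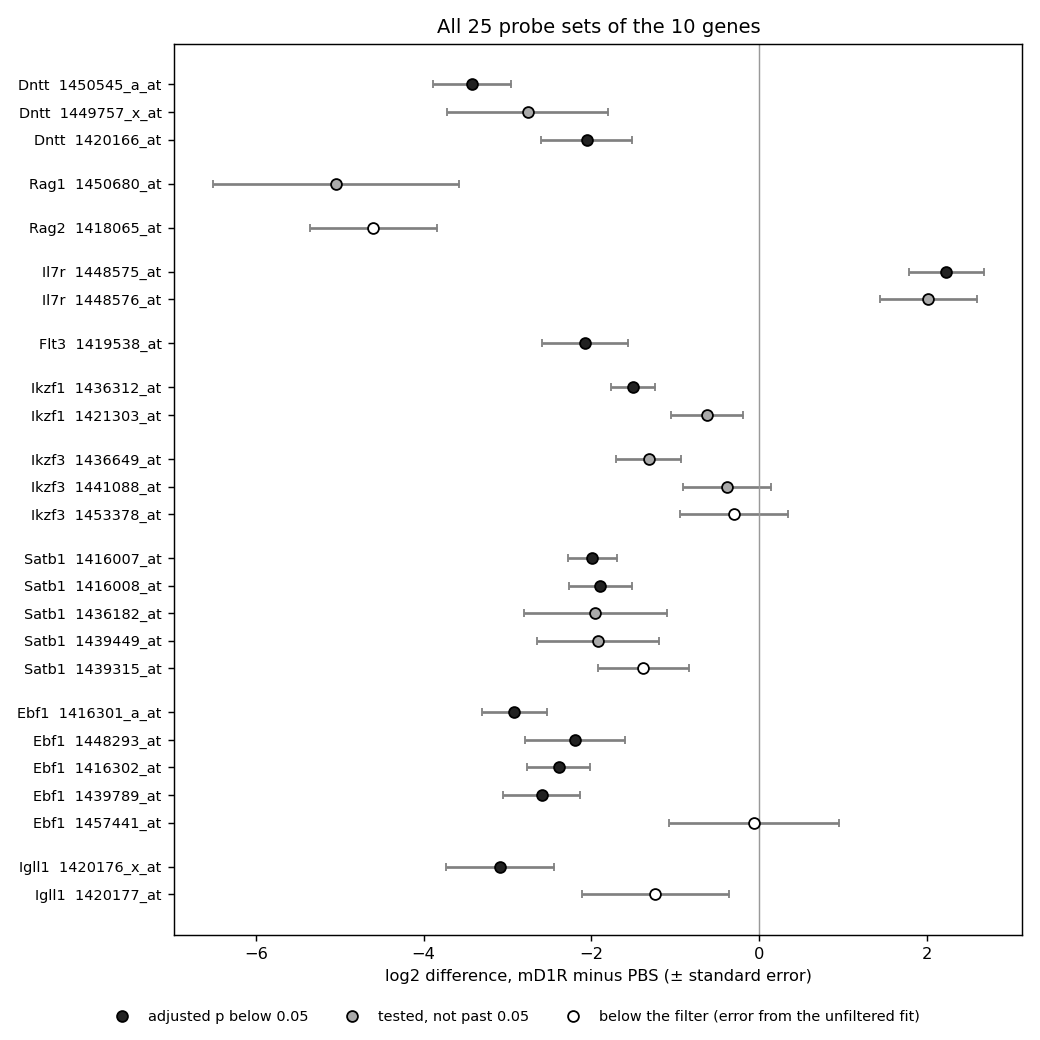
Log2 difference, mD1R minus PBS, with its standard error (horizontal axis), for each of the 25 probe sets (rows, grouped by gene). Black points passed an adjusted p of 0.05, grey points were tested and did not pass, and white points lay below the filter and take their error from the fit with no filter. The Il7r probe sets are the only points above 0, at 2.24 and 2.02.

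Of the 5 lists of partner genes, that of the B lineage held the most falls. Among 17 partners of Ebf1 and Igll1, 14 were measured, 6 fell and 8 did not pass, where 7.09% of all 12320 measured genes fell. The list median was -1.41, against 0.09 over all measured genes. The falls with the smallest p were in the B cell scaffold gene Bank1 (-2.50 ± 0.26, adjusted p = 0.00961), the Src family kinase gene Blk (-1.62 ± 0.31, adjusted p = 0.0183) and the glycoprotein gene Cd24a (-1.90 ± 0.42, adjusted p = 0.0265). The other falls, named after their values were seen, were in Lef1 (-2.52 ± 0.59), Cd79b (-0.90 ± 0.22) and the surrogate light chain gene Vpreb3 (-2.11 ± 0.57). Vpreb1, the partner of Igll1, had 6.13, 10.58 and 8.03 in mD1R replicates 1, 2 and 3, against 11.73, 11.06 and 11.17 in PBS replicates 1, 2 and 3. Its difference of -3.07 ± 0.94 did not pass (adjusted p = 0.0690).

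Tcf3, Cd79a and Foxo1 did not pass. Tcf3, which encodes the E proteins E12 and E47, differed by -1.0 ± 0.32 (adjusted p = 0.0792), the signalling chain gene Cd79a by -1.20 ± 0.51 (adjusted p = 0.163) and Foxo1 by 0.12 ± 0.22 (adjusted p = 0.755). Both Pax5 probe sets lay below the filter. The brighter of them had 3.44, 4.27 and 4.01 in mD1R replicates 1, 2 and 3, and 5.96, 5.22 and 5.13 in PBS replicates 1, 2 and 3. It differed by -1.53, which did not pass with no filter (adjusted p = 0.174).

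Regulators and surface genes of lymphoid-primed progenitors changed in both directions. Of 32 genes, 27 were measured, 4 fell, 3 rose and 20 did not pass (median -0.53). The largest of the falls was in Cd7, an antigen of T and natural killer precursors (-3.88 ± 0.44, adjusted p = 0.00968). The chemokine receptor gene Ccr7 rose by 1.51 ± 0.33 (adjusted p = 0.0257) and the factor gene Runx3 by 0.86 ± 0.19 (adjusted p = 0.0264). Named after their values were seen, Id3 (-1.82 ± 0.42), Id1 (-1.41 ± 0.36) and Ccr9 (-2.90 ± 0.76) also fell and Ikzf2 rose. Spi1, which encodes PU.1 of myeloid and lymphoid progenitors, had a difference of -0.84 ± 0.28, short of the threshold (adjusted p = 0.0855). Over the 5 lists, 76 of 89 genes were measured, 12 (15.8%) fell and 3 (3.95%) rose, against 7.09% and 8.49% of all measured genes. The lists, too, were chosen with earlier results known, so these shares are a description. The count of 12 was 7 and 5 without mD1R replicates 1 and 2, 22 without mD1R replicate 3, and 3, 3 and 0 without PBS replicates 1, 2 and 3. The count of 3 that rose was 0, 0 and 5 without mD1R replicates 1, 2 and 3, and 2, 0 and 0 without PBS replicates 1, 2 and 3. It was 5 after quantile normalization, and with no variance trend 7 fell and 1 rose.

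**Figure D3:**
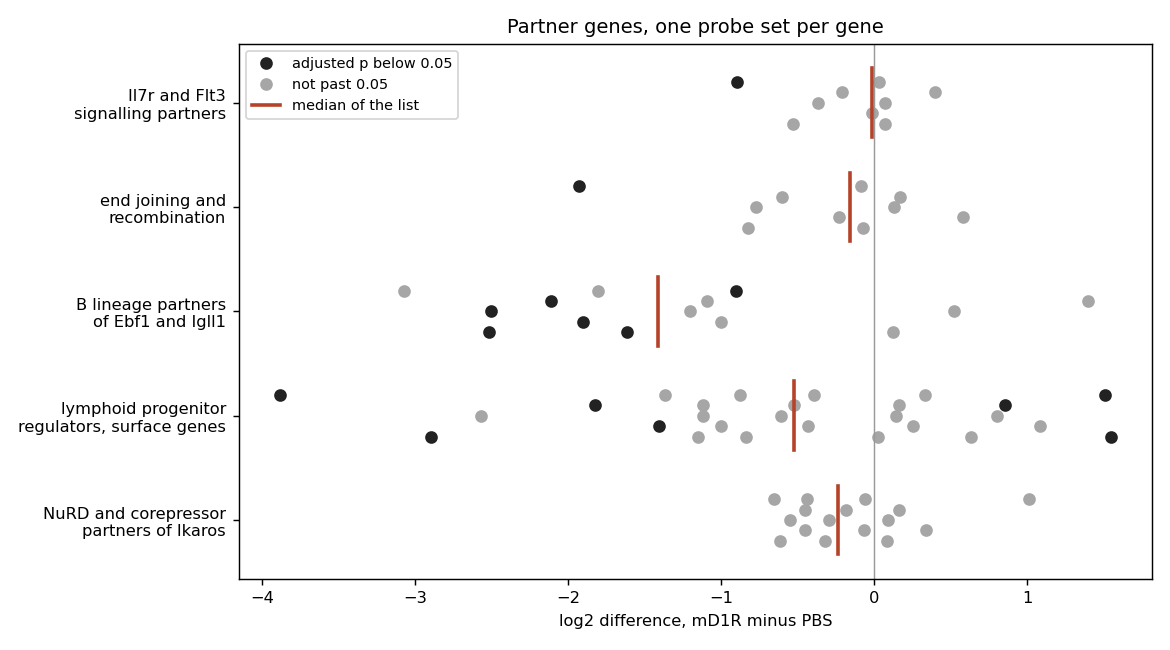
Log2 difference, mD1R minus PBS (horizontal axis), of each measured gene in the 5 lists of partner genes (rows), 1 probe set per gene. Black points passed an adjusted p of 0.05, grey points did not, and the red bar is the list median. The B lineage list has the lowest median, -1.41, and the NuRD and corepressor list has no black point.

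The arrays of a group were not alike in these genes. Averaged over the 9 genes with a tested probe set, after centring each gene on its mean, the log2 signal was -1.93, -0.53 and -0.73 in mD1R replicates 1, 2 and 3, and 1.54, 0.78 and 0.87 in PBS replicates 1, 2 and 3. Replicate 1 of mD1R was lowest and replicate 1 of PBS highest. The average includes Rag1, which entered the test through its PBS arrays and was listed at log2 0 in mD1R replicate 1. That value pulls the average of mD1R replicate 1 down. Il7r, with higher signals with mD1R, is included as well. Over all tested probe sets the arrays stood differently, with mD1R replicate 3 between the groups on the first principal component (12.6, against 108.4 and 93.6 in mD1R replicates 1 and 2, and -79.4 to -64.5 in PBS). The spiked bacterial control transcript BioB, set against the other spiked controls, also split the arrays. It lay from -3.09 to -2.99 (log2) in set 1, which holds mD1R replicates 1 and 2 and PBS replicate 1, and from -5.56 to -5.50 in set 2, which holds mD1R replicate 3 and PBS replicates 2 and 3.

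Within each spike-in set the 10 genes, by brightest probe set, had the sign they had over all arrays. Each set has 1 array on one side and hence no test. Dimmer probe sets did not all keep their sign. In set 2, Ikzf3 1441088_at differed by 0.57 (-0.38 over all arrays) and Ebf1 1457441_at, below the filter, by 1.07 (-0.06 over all arrays). Dntt differed by -4.45 in set 1 and -2.54 in set 2, Ebf1 by -3.63 and -2.73, Igll1 by -3.83 and -2.34, and Satb1 by -2.32 and -1.36. Flt3 was nearly equal at -2.22 in set 1 and -2.18 in set 2, as was Il7r at 1.97 and 1.78. Ikzf1 differed by -1.49 and -1.13, Rag1 by -6.88 and -3.23, and Rag2 by -5.09 and -4.70. The widest proportional gap was in Ikzf3, with -2.08 in set 1 and -0.29 in set 2. With the set as a block in the fit, 10 member probe sets fell and 1 rose, against 11 and 1 without it. Of all tested probe sets, 6.22% fell with the block and 6.5% without it.

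**Figure D4:**
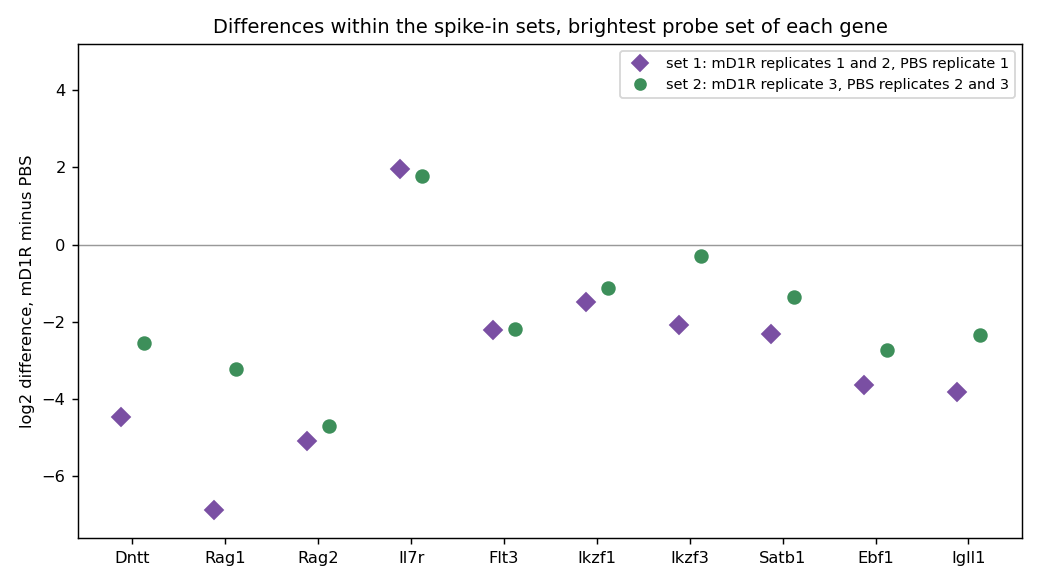
Log2 difference, mD1R minus PBS (vertical axis), of the brightest probe set of each gene within spike-in set 1 (purple diamonds) and set 2 (green circles). Each point rests on a single array of 1 group. Il7r lies above 0 in both sets (1.97 and 1.78) and the other 9 genes lie below 0 in both, with Ikzf3 closest to 0 in set 2 (-0.29).

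Outside the 10 genes, the 6 genes whose signal over the 6 arrays was most like the centred mean of the members were Gfra2 (Pearson r = 0.995), Rgs2 (0.994), Bub1b (0.994), Thap11 (0.993), Gatm (0.993) and Gimap4 (0.992), out of 12311 genes compared. All points share 2 groups of 3 arrays, so any gene that is low with mD1R scores high, and these values are a description. Gimap4, a GTPase gene of lymphocytes, had 6.70, 8.20 and 7.96 in mD1R replicates 1, 2 and 3, against 9.88, 9.58 and 9.60 in PBS replicates 1, 2 and 3.

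Markers of other cell types differed between the groups alongside the lymphoid genes, and their part in the results was not tested. The levels below are sums of linear signal over each list, probe sets below the filter included, and no marker summed was listed at 0 on any array. The counts stand against 7.09% of all 12320 measured genes that fell and 8.49% that rose. Natural killer markers fell in 6 of 8 measured genes, with sums of 1542 to 2601 with mD1R and 4876 to 9031 with PBS. Mast cell and basophil markers rose in 10 of 13, with sums of 72473 to 99457 with mD1R and 15344 to 24560 with PBS. Monocyte and macrophage markers rose in 5 of 7 (103362 to 156934 with mD1R, 51717 to 69141 with PBS). Neutrophil markers fell in 2 of 11, and their sum was 33599, 104236 and 297317 in mD1R replicates 1, 2 and 3, against 252977 to 310599 with PBS. T cell markers fell in 2 of 8, Cd3d (-3.73) and Cd3g (-1.80), and rose in 1, Lat (1.53). Their sums were 2150 to 3627 with mD1R and 1595 to 2105 with PBS, so the higher sum does not stand for the Cd3 genes. Mature B cell markers fell in 1 of 5 (3044 to 3944 with mD1R, 3586 to 4640 with PBS). Plasmacytoid dendritic cell markers, which share Ccr9, Ly6d and Tcf4 with the progenitor list, fell in 2 of 8, Siglech (-2.81) and Ccr9 (-2.90). They rose in 2, Bst2 (1.75) and Irf7 (1.49), and their sums were 18054 to 24652 with mD1R and 12573 to 17427 with PBS. The median difference of the list was -0.81, and the higher sums do not stand for Siglech and Ccr9. Endothelial markers rose in 1 of 5, Pecam1 (1.41), with sums of 3200 to 5234 with mD1R and 1310 to 1957 with PBS. Vwf (2.11), Eng (1.40), Kdr (0.79) and Egfl7 (0.10) did not pass, and Cdh5, Tek and Tie1 lay below the filter. In RNA from sorted populations, fewer cells of a type and less RNA per cell cannot be told apart.

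**Figure D5:**
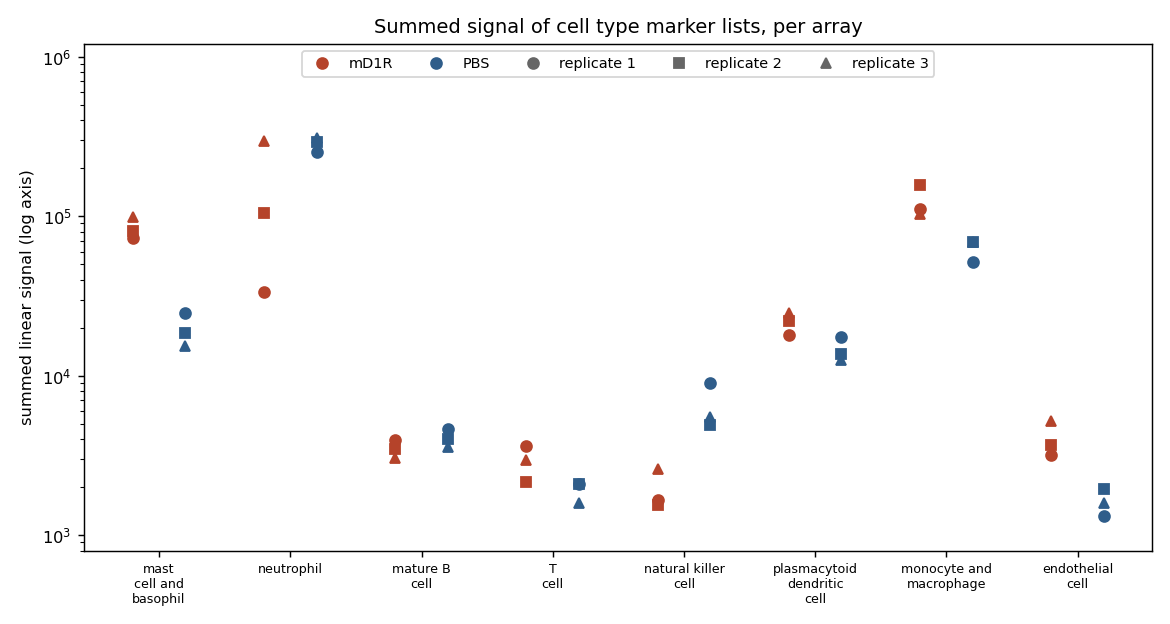
Summed linear signal (vertical log axis) of each cell type marker list in the 3 mD1R arrays (red, left) and the 3 PBS arrays (blue, right), with symbols for the replicate number. Mast cell and basophil sums are 72473 to 99457 with mD1R and 15344 to 24560 with PBS, and natural killer sums are 1542 to 2601 with mD1R and 4876 to 9031 with PBS.

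The gate itself could be checked only in part. Kit had 10.69 ± 0.97 with mD1R and 9.34 ± 0.57 with PBS (SD, log2 signal), which missed the threshold (adjusted p = 0.109). Cd34, a marker of progenitors within the gate, rose by 1.98 ± 0.43 (adjusted p = 0.0263). Itgam, an antigen that the lineage gate usually removes, had clear signal in every array, at 11.74 ± 0.19 with mD1R and 12.07 ± 0.36 with PBS. Ptprc (-0.34 ± 0.21), Cd3e (-1.41 ± 0.59) and Cd8a (-0.40 ± 0.53) did not pass. Ly6a, Ly6g and Ly76 had no probe set with a single symbol, and Cd4 lay below the filter.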

How the data were processed

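Per the labels, total RNA was labelled with biotin and hybridised to Affymetrix 3 prime arrays. The authors deposited 1 table of log2 signals for 45101 probe sets, made with MAS5 according to the submitters' processing notes, its version not given in the sources used here. Undoing log2 gave a 2% trimmed mean of 500 on every array, so each had been scaled alone. Array medians were 6.08 to 6.43, and 239 to 422 values per array were listed at 0. Detection calls were not used here. The number of arrays limits the precision.

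Groups came from the sample titles. The deposited log2 values were fitted with limma 3.58.1 in R 4.3.3 (lmFit, eBayes with a variance trend, two-sided), without further scaling, and p-values were adjusted by Benjamini-Hochberg over 27022 probe sets with a mean at or above the 40th percentile (5.27). The test was tried on simulated data. Control probe sets (64) and those with several symbols (932) or unlisted (9160) were not named. A gene was represented by its brightest tested probe set. The named genes were all members with every probe set. From each partner list they were the 3 genes with the smallest p among those past the threshold, otherwise 1. Pax5, Tcf3, Foxo1, Il2rg, Vpreb1, Cd79a, Spi1, the gate markers and the 6 genes most like the members completed the rule. Members and lists were chosen with earlier results of these data known. Arrays of the same group differed from each other on every pair (SD of log2 differences 0.504 to 0.960), so none was a copy.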

Additional observations from a re-analysis of the deposited data

How the results depend on the processing

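Against 17 alternative fits, 11 member probe sets fell and 1 rose in the analysis as reported. Raising the filter to the 60th percentile left 11 of the 25 tested, of which 6 fell and 2 rose. Of all 18015 probe sets tested there, 9.81% fell, and 3451 were called in either direction. At an adjusted p of 0.01 both member counts were 0 and 108 probe sets passed in all. The number rising was 2 with arrays centred on their medians, with array weights, with the replicate block and at unadjusted p 0.05 with a 2-fold change. Leaving out each array in turn, 0 to 11 fell and 0 to 2 rose, all calls ran from 0 to 5565 (3413 with all arrays), and partner genes that fell from 0 to 22 and that rose from 0 to 5. All calls were 2213 with no variance trend and 6508 with array weights. Of the partner genes 12 fell and 3 rose as reported, 7 and 1 with no variance trend, 23 and 6 with array weights and 19 and 6 with the replicate block, and 5 rose after quantile normalization, with a pseudocount of 64 or under the 60th percentile filter. No called member probe set reversed. The replicate numbers were not treated as pairs in the main fit. Deviations from the group means correlated at 0.31, 0.03 and 0.13 for replicates 1, 2 and 3. The limit set was 0.1, which replicates 1 and 3 exceeded and replicate 2 did not. PBS replicate 2 correlated best with mD1R replicate 3. These values do not settle whether the numbers mark pairs. With the replicate block the members called lower numbered 10 and all calls 4619, and the Dntt 1420166_at call was lost (adjusted p = 0.0506). Signals near the filter are imprecise, and the Rag1 and Ikzf3 calls changed with single arrays and with array weights, the Rag1 call also with the pseudocount and the Ikzf3 call with centring. The cause was not tested.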
